A study of Macaca mulatta with 43 samples.

Results

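Cortical inhibitory interneurons are described here through 8 genes of GABA synthesis, interneuron identity and neuropeptides (GAD1, GAD2, LHX6, PVALB, VIP, NPY, SST and CCK), measured in medial prefrontal cortex of rhesus macaques. Members were all probesets of the Affymetrix rhesus array whose only gene symbol in the platform's probe table is one of these genes. GAD1 had 3 probesets, GAD2 and LHX6 had 2 each, and PVALB, VIP and NPY had 1 each, while no probeset of SST or CCK was listed in the table used here. The 6 genes so found had 10 probesets, all of which passed the filter on low values, of 24151 probesets (13705 gene symbols) tested in all. Probesets of 1 gene are numbered by their mean over all arrays, highest first.

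The 43 animals, all male and aged 5 to 11 years, gave 1 array each, from RNA of Brodmann areas 24, 25 and 32 pooled within the animal. Of these, 32 had drunk ethanol (4% w/v, offered with water for 22 h per day over 1 year) and 11 were controls given a calorie-matched maltose dextran solution and water. The 11 animals of cohort 4 were all drinkers. There were 8 drinkers and 5 controls in cohort 5, 8 and 4 in cohort 7a, and 5 and 2 in cohort 7b. Intake was chosen by each animal, so dose differed among drinkers and was not used here. RNA was extracted with one kit in cohorts 4 and 5 and with another in cohorts 7a and 7b, and the arrays of these pairs of cohorts were also run one pair after the other, so a difference between the pairs of cohorts cannot be told apart from one of kit or array run.

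GABA is made from glutamate by 2 glutamic acid decarboxylases, encoded by GAD1, which supplies most of the cell's GABA, and GAD2, which is found mainly at nerve terminals. Cortical interneurons fall into classes with different targets: fast-spiking cells that contain the calcium-binding protein parvalbumin (PVALB) act on the cell bodies of pyramidal neurons, whereas cells that contain vasoactive intestinal peptide (VIP) act mainly on other interneurons. LHX6 is a homeobox transcription factor needed for interneurons born in the medial ganglionic eminence, among them the parvalbumin and somatostatin cells, and neuropeptide Y (NPY) is a peptide transmitter released by several interneuron types. In bulk tissue such as this, fewer cells of a type and less RNA per cell cannot be told apart.

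All values are log2 values from robust multi-array averaging (RMA), so a difference of 1 is a 2-fold difference, and levels are compared only within a probeset. The actin 3′ minus 5′ value, the log2 level of beta-actin at the 3′ end of its transcript less that at the 5′ end, was 4.24 to 4.95 in cohorts 4 and 5. It was 0.76 to 0.87 in the controls and 0.93 to 1.60 in the ethanol-drinking animals of cohort 7a, which did not overlap, and 0.75 to 0.81 and 0.76 to 1.71 in cohort 7b. One array, of ethanol-drinking animal 41 in cohort 7b, had a hybridization spike-in (BioB) of 5.69 where the other arrays of cohorts 7a and 7b had 7.88 to 8.91. The arrays of cohorts 4 and 5 had 5.24 to 6.22. The part of RNA quality in the differences below was not tested beyond a fit with the actin value as a covariate. Arrays were processed in smaller batches within each pair of cohorts, under what the authors call a supervised randomization. Which animals shared a batch was not used here, so whether batches fell evenly on controls and drinkers within cohorts 7a and 7b was not tested.

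In the fits over all cohorts, ethanol-drinking animals had higher signal on both GAD2 probesets and on 1 of the 2 LHX6 probesets, and lower VIP signal, than controls. The second LHX6 probeset did not pass, and within cohorts no member passed in cohort 5. Without any covariate, 3 of the 10 member probesets were higher in drinkers (both of GAD2 and the first of LHX6) against 5.57% of all probesets tested, and 1 was lower (VIP) against 10.6% (limma, Benjamini-Hochberg adjusted p under 0.05). With cohort as a block, the same 3 were higher against 11.8% of all probesets, and 3 were lower (VIP and the second and the third of GAD1) against 21.5%. The higher calls came from 2 genes, since probesets of 1 gene share their target. Array weights were set by how closely each array followed the fit. Whether differences between cohorts entered the weights of the fit without covariates was not tested. With such weights and no covariates, the 4 member calls were lost (limma adjusted p from 0.341 to 0.545, with 0 of the 24151 probesets called). With cohort as a block the weights left all 6 member calls in place (adjusted p from 0.00207 to 0.0437).

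**Figure D1:**
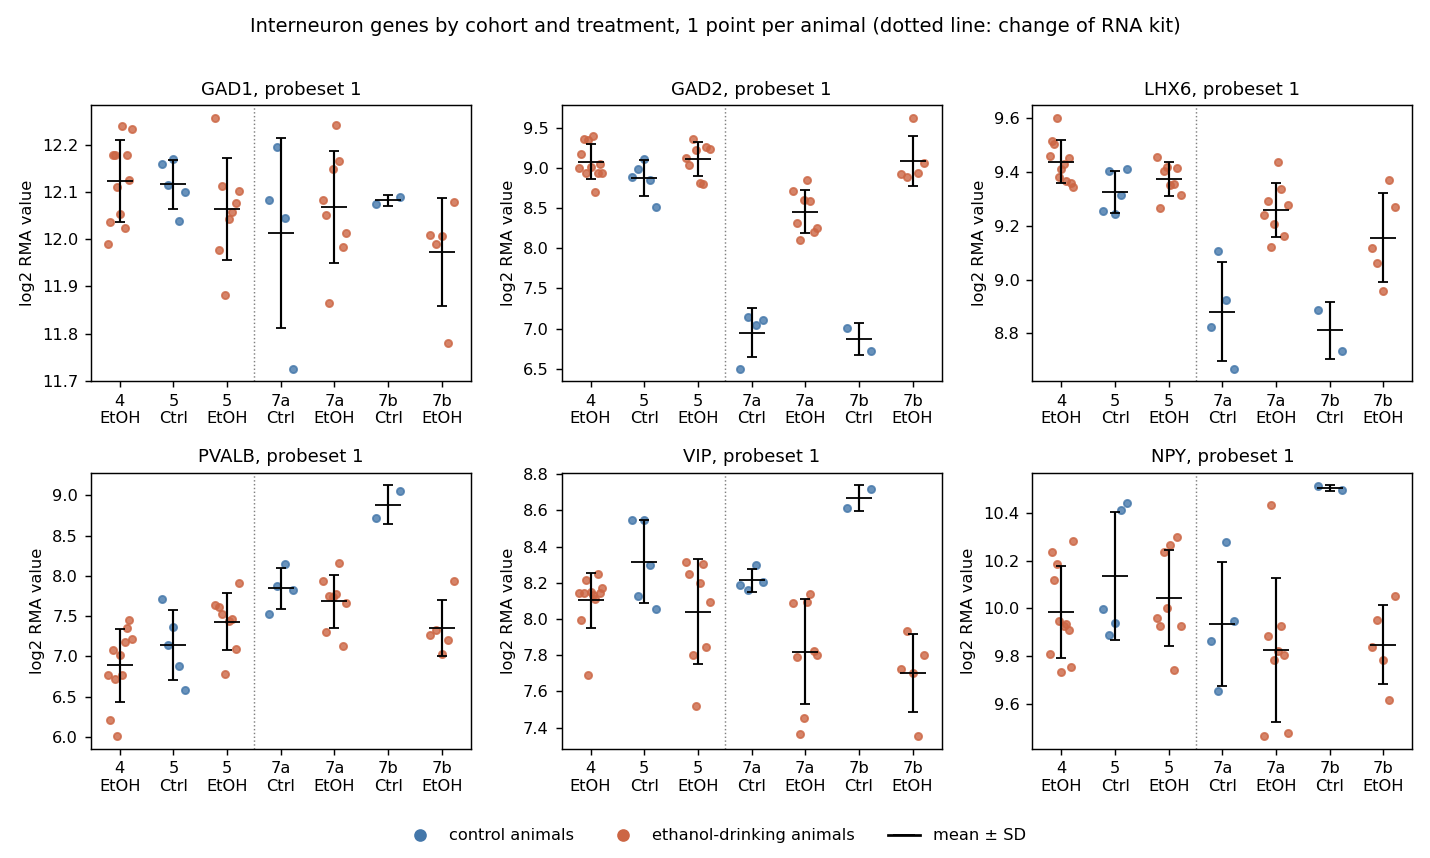
Log2 RMA values (y axis) of the first probeset of each gene by cohort and treatment (x axis), with 1 point per animal and bars for the mean ± SD. The 6 controls of cohorts 7a and 7b have GAD2 values between 6.50 and 7.15, below all other animals, and the 2 controls of cohort 7b have the highest PVALB, VIP and NPY values.

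GAD2 showed the largest differences of the members with cohort as a block and within cohorts 7a and 7b. Its first probeset read 8.52, 8.85, 8.89, 8.996 and 9.11 in the 5 controls of cohort 5, and from 8.80 to 9.37, with a median of 9.18, in the 8 drinkers of that cohort. In cohort 7a the 4 controls read 6.50, 7.05, 7.11 and 7.15, and the 8 drinkers from 8.10 to 8.85 with a median of 8.46. In cohort 7b the 2 controls read 6.73 and 7.01, and the 5 drinkers 8.89, 8.93, 8.94, 9.07 and 9.62. The groups overlapped in cohort 5 and stood clearly apart in cohorts 7a and 7b, where the controls were the low ones. The drinkers of cohort 7b lay at the level of cohorts 4 and 5 and those of cohort 7a below it. The drinkers of cohort 4 ranged from 8.71 to 9.40 with a median of 9.01.

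In order of its mean, the first GAD2 probeset was at 9.11 ± 0.21 (SD, n = 8) in drinkers of cohort 5, 9.09 ± 0.31 (n = 5) in drinkers of cohort 7b, 9.08 ± 0.22 (n = 11) in drinkers of cohort 4 and 8.88 ± 0.22 (n = 5) in controls of cohort 5. Each of these neighbours differed by less than the larger of their SDs. Drinkers of cohort 7a followed at 8.46 ± 0.27 (n = 8), and the controls of cohorts 7a and 7b were last at 6.95 ± 0.30 (n = 4) and 6.87 ± 0.20 (n = 2), a pair that again lay within its spread. The gap above these 2 control groups was the widest in the order.

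The difference in GAD2 between drinkers and controls was 1.12 ± 0.20 (SE) over all arrays, with a limma adjusted p of 0.000946, and 1.10 ± 0.15 with cohort as a block, or 2.15-fold (adjusted p = 7.41e-06). This was the 8th smallest p of all probesets in the blocked comparison. Within cohorts the difference was 0.24 ± 0.13 in cohort 5 (adjusted p = 1.00, 95% confidence interval -0.04 to 0.51), 1.51 ± 0.14 in cohort 7a, or 2.84-fold (adjusted p = 2.18e-10), and 2.22 ± 0.20 in cohort 7b, or 4.67-fold (adjusted p = 1.24e-11). In cohorts 7a and 7b the call held whichever array was left out, with differences from 1.36 to 1.57 and from 2.08 to 2.36. With the actin value as a covariate the differences were 1.59 and 2.28.

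The second GAD2 probeset went the same way with smaller differences. It read 5.79, 6.04, 6.11 and 6.33 in controls of cohort 7a against 5.93 to 6.56 in drinkers (median 6.44), and 5.62 and 5.92 in controls of cohort 7b against 6.30, 6.63, 6.65, 6.70 and 6.87 in drinkers. The groups overlapped in cohort 7a but not in cohort 7b. The difference was 0.32 ± 0.08 with cohort as a block (adjusted p = 0.00134), 0.09 ± 0.10 in cohort 5 (adjusted p = 1.00, interval -0.10 to 0.29), 0.29 ± 0.10 in cohort 7a (adjusted p = 0.0301) and 0.86 ± 0.14 in cohort 7b (adjusted p = 4.03e-06). The call in cohort 7a was lost when animal 26 (adjusted p = 0.184), 27 (0.0703), 29 (0.0504) or 33 (0.0607) was left out, and with the actin value as a covariate (0.123). The call over all arrays (0.37 ± 0.11, adjusted p = 0.0178) was lost without control 26 (0.0501), 37 (0.0752) or 38 (0.0606) and without cohort 4 (0.140).

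GAD1, the other GABA-synthesizing enzyme, differed between drinkers and controls by the second and the third of its probesets and not detectably by the first. Its first probeset, at a mean of 12.1, was nearly level across all animals, from 11.7 to 12.3. The difference between drinkers and controls was -0.02 ± 0.04 with cohort as a block (adjusted p = 0.716), with an interval of -0.11 to 0.06. None of the differences within a cohort passed (-0.05 in cohort 5, then 0.06 and -0.11 in cohorts 7a and 7b). The intervals across the 3 cohorts reached from -0.30 to 0.20. On this probeset, a change as large as that of the first GAD2 probeset in cohorts 7a and 7b (1.51 and 2.22) lay outside them.

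The second and the third GAD1 probesets, at means of 6.70 and 6.07, were lower in drinkers of cohorts 7a and 7b. The second read 7.39, 7.54, 7.59 and 7.63 in the controls of cohort 7a and 6.74 to 7.35 (median 6.91) in the drinkers, with no overlap, and 7.54 and 7.87 against 6.74, 7.11, 7.35, 7.44 and 7.58 in cohort 7b. The difference was -0.59 ± 0.11 in cohort 7a (adjusted p = 0.000138) and -0.46 ± 0.16 in cohort 7b (adjusted p = 0.0157). The third probeset differed by -0.51 ± 0.12 in cohort 7a (adjusted p = 0.00165) and -0.51 ± 0.17 in cohort 7b (adjusted p = 0.0137). In cohort 5 neither passed, at -0.04 ± 0.11 and -0.11 ± 0.11 (adjusted p = 1.00 for both, intervals -0.25 to 0.18 and -0.34 to 0.12).

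Both of these probesets also stood about 1 log2 unit higher in cohorts 7a and 7b than in cohorts 4 and 5, at means of 7.23 and 6.28 for the second and 6.63 and 5.63 for the third, whereas the first was at 12.03 and 12.10. Within cohort 7b their calls were lost without 1 animal. Without control 37 they were -0.30 (adjusted p = 0.294) and -0.25 (0.429), and without drinker 42 the second was -0.34 (0.0625). The second was also uncalled there with the actin value as a covariate (-0.34, adjusted p = 0.0773). With cohort as a block they were -0.33 ± 0.08 (adjusted p = 0.00155) and -0.34 ± 0.08 (adjusted p = 0.00122), and with the actin value as a covariate the second was no longer called (-0.19, adjusted p = 0.0754). Over all arrays they were -0.41 ± 0.18 (adjusted p = 0.0981) and -0.43 ± 0.18 (adjusted p = 0.103), and the second passed when control 12 (0.0483), 14 (0.0452) or 15 (0.0482) of cohort 5 was left out.

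**Figure D2:**
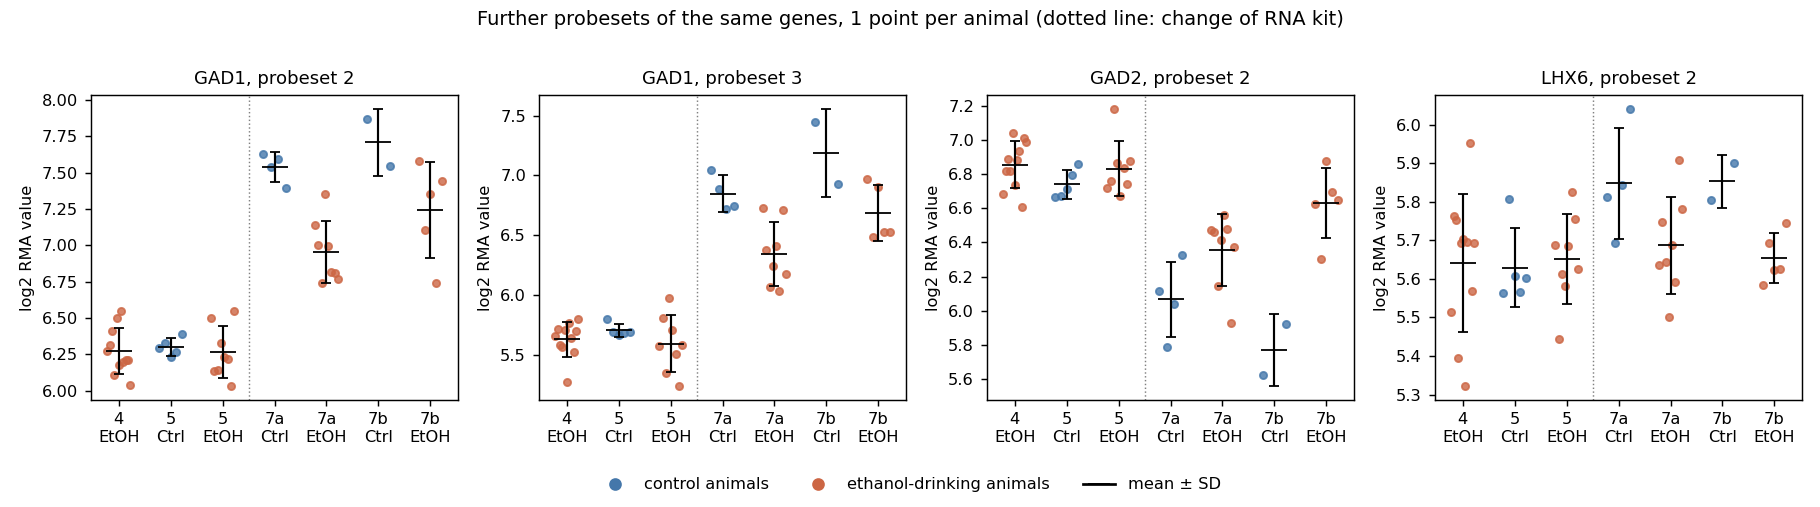
Log2 RMA values (y axis) of the second and the third GAD1 probeset and the second probesets of GAD2 and LHX6 by cohort and treatment (x axis), with 1 point per animal and bars for the mean ± SD. The GAD1 probesets are higher in cohorts 7a and 7b than in cohorts 4 and 5, and in cohorts 7a and 7b their controls have higher means than their drinkers.

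LHX6, the transcription factor of interneurons born in the medial ganglionic eminence, was higher in drinkers by its first probeset. The values were 9.24, 9.26, 9.32, 9.40 and 9.41 in controls and 9.27 to 9.45 (median 9.38) in drinkers of cohort 5. They were 8.67, 8.82, 8.92 and 9.11 in controls and 9.12 to 9.43 (median 9.26) in drinkers of cohort 7a, and 8.74 and 8.89 in controls and 8.96, 9.06, 9.12, 9.27 and 9.37 in drinkers of cohort 7b. The groups overlapped in cohort 5 and not in cohorts 7a and 7b, although in cohort 7a the highest control and the lowest drinker nearly met. The drinkers of cohort 4 had the highest mean, 9.44 ± 0.08 (SD, n = 11).

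The LHX6 difference was 0.26 ± 0.06 over all arrays (limma adjusted p = 0.00527) and 0.23 ± 0.05 with cohort as a block (adjusted p = 0.000385). It was 0.05 ± 0.06 in cohort 5 (adjusted p = 1.00, interval -0.08 to 0.17), 0.38 ± 0.07 in cohort 7a (adjusted p = 4.74e-05) and 0.34 ± 0.09 in cohort 7b (adjusted p = 0.00265). The last of these was lost when control 38 was left out (0.27, adjusted p = 0.0903), and the call over all arrays was lost without cohort 4 (0.21, adjusted p = 0.0602). The second LHX6 probeset did not pass in any cohort, with a difference of 0.02 ± 0.08 in cohort 5 (adjusted p = 1.00, interval -0.13 to 0.18), while cohorts 7a and 7b gave -0.16 ± 0.08 and -0.20 ± 0.11 (adjusted p = 0.137 and 0.166, intervals -0.33 to 0.01 and -0.43 to 0.03). It was called lower when the blocked fit was limited to cohorts 7a and 7b (-0.17, adjusted p = 0.0327). The mean of both LHX6 probesets did not pass with cohort as a block, at 0.07 ± 0.03 (adjusted p = 0.0949).

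PVALB, which marks fast-spiking interneurons, differed in cohort 7b and not detectably in the others. In cohort 7b the 2 controls read 8.72 and 9.05, the highest values of all 43 animals, and the 5 drinkers 7.03, 7.20, 7.27, 7.33 and 7.94. The controls of cohort 7a read 7.53, 7.83, 7.87 and 8.15 and the drinkers 7.13 to 8.16 (median 7.75), and in cohort 5 the controls read 6.58, 6.87, 7.14, 7.37 and 7.72 and the drinkers 6.78 to 7.91 (median 7.49). Controls and drinkers overlapped widely in cohorts 5 and 7a. The drinkers of cohort 4 ranged from 6.01 to 7.45 with a median of 7.02. Among the first probesets PVALB had the widest spread in most of the 7 groups, with SDs of 0.24 to 0.45.

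The PVALB difference was -1.53 ± 0.30 in cohort 7b, or 2.89-fold lower (limma adjusted p = 6.31e-05), and between -1.70 and -1.36 whichever array was left out. In cohort 7a it was -0.16 ± 0.22 (adjusted p = 0.616, interval -0.61 to 0.28) and 0.30 ± 0.20 in cohort 5 (adjusted p = 1.00, interval -0.12 to 0.71). Across cohorts it did not pass, at -0.42 ± 0.19 without covariates (adjusted p = 0.125) and -0.24 ± 0.17 with cohort as a block (adjusted p = 0.283). Without control 16 of cohort 5 the first of these was -0.53 (adjusted p = 0.0389), and in cohorts 7a and 7b alone the blocked difference was -0.64 (adjusted p = 0.0123).

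VIP, the peptide of interneurons that act on other interneurons, had a lower mean in drinkers in each of the 3 cohorts with controls. In cohort 5 the controls read 8.06, 8.13, 8.30, 8.55 and 8.55 and the drinkers 7.52 to 8.31 (median 8.15). In cohort 7a the controls read 8.16, 8.19, 8.20 and 8.30 and the drinkers 7.36 to 8.14 (median 7.81), and in cohort 7b the controls read 8.62 and 8.72 and the drinkers 7.35, 7.70, 7.72, 7.80 and 7.93. The groups overlapped in cohort 5 but not in cohorts 7a and 7b, where every drinker was below every control. The drinkers of cohort 4 ranged from 7.69 to 8.25 with a median of 8.14.

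The VIP difference was -0.39 ± 0.09 over all arrays (limma adjusted p = 0.00429) and -0.46 ± 0.09, or 1.37-fold lower, with cohort as a block (adjusted p = 0.000186). It was -0.28 ± 0.12 in cohort 5 (unadjusted p = 0.0313 and adjusted p = 1.00 by limma, interval -0.52 to -0.03), -0.39 ± 0.13 in cohort 7a (adjusted p = 0.0206) and -0.96 ± 0.18 in cohort 7b, or 1.95-fold lower (adjusted p = 3.31e-05). The blocked call held whichever array was left out, with differences from -0.49 to -0.40. The call in cohort 7a was lost without control 27 (-0.37, adjusted p = 0.0642), with array weights (0.0504) and with the actin value as a covariate (-0.42, adjusted p = 0.0534).

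NPY differed in cohort 7b. Its 2 controls there read 10.49 and 10.51, above the 5 drinkers at 9.62, 9.78, 9.84, 9.95 and 10.05. In cohort 7a the controls read 9.65, 9.86, 9.95 and 10.3 and the drinkers 9.47 to 10.4 (median 9.81), and in cohort 5 the controls read 9.89, 9.94, 9.998, 10.41 and 10.44 and the drinkers 9.74 to 10.3 (median 9.98). The groups overlapped in cohorts 5 and 7a, and the drinkers of cohort 4 ranged from 9.73 to 10.28 with a median of 9.93. The difference was -0.65 ± 0.18 in cohort 7b, or 1.57-fold lower (limma adjusted p = 0.00384), -0.11 ± 0.13 in cohort 7a (adjusted p = 0.574, interval -0.38 to 0.16) and -0.09 ± 0.13 in cohort 5 (adjusted p = 1.00, interval -0.34 to 0.16).

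With cohort as a block the NPY difference was -0.21 ± 0.09 with an adjusted p of 0.0591, just outside the threshold. Leaving out any 1 of 8 animals (12, 13, 14, 19, 21, 23, 26 or 31) took it past the threshold, at differences from -0.25 to -0.22 and adjusted p from 0.0173 to 0.0453. Over all arrays it was -0.19 ± 0.09 (adjusted p = 0.122).

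Counted within cohorts, none of the 10 member probesets passed in cohort 5, where 0% of all probesets passed in either direction by limma and 731 of the 24151 had an unadjusted p under 0.05, among them VIP alone of the members. In cohort 7a 3 members were higher (both GAD2 probesets and the first of LHX6) against 10.6% of all probesets, and 3 were lower (the second and the third of GAD1 and VIP) against 20.3%. In cohort 7b the same 3 were higher against 14% of all probesets, and 5 were lower (these 3, PVALB and NPY) against 26.1%. Values of controls and drinkers did not overlap for 0, 4 and 7 of the 10 member probesets in cohorts 5, 7a and 7b, against 0.166%, 11.0% and 43.2% of all probesets. Groups that did not overlap were thus common over all probesets in cohort 7b, where 2 controls were set against 5 drinkers. Why their share was so high there was not tested.

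**Figure D3:**
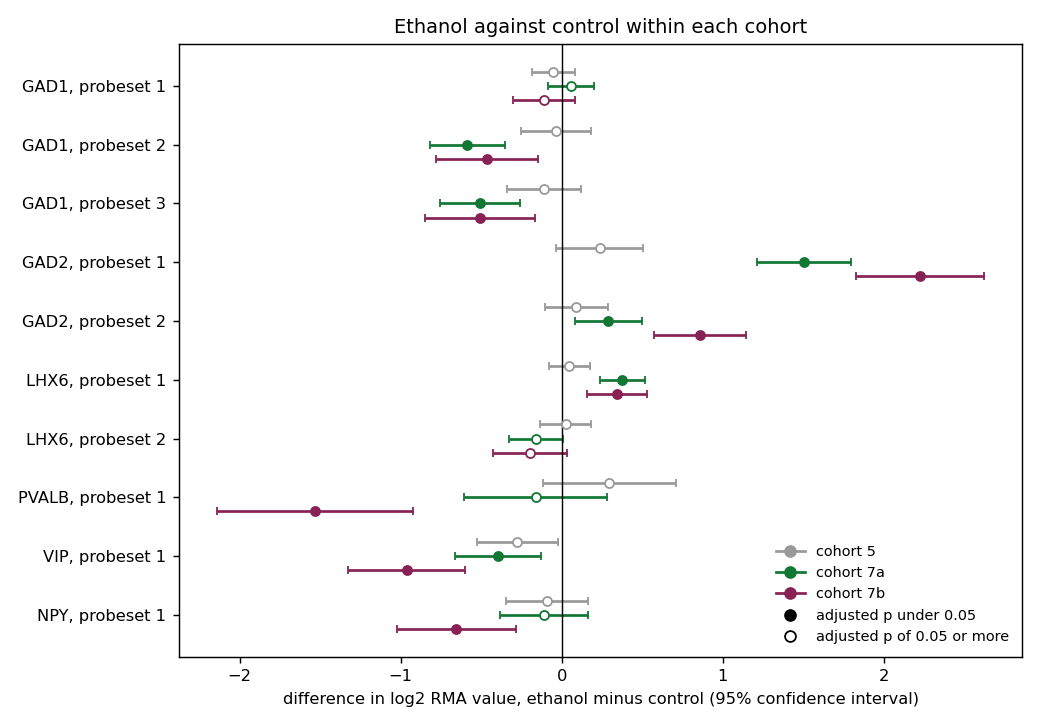
Difference in log2 RMA value, ethanol minus control (x axis), for each member probeset (y axis) in cohorts 5, 7a and 7b, with 95% confidence intervals from limma; filled points have an adjusted p under 0.05. In cohort 5 no point is filled, while GAD2 reaches 2.22 and PVALB -1.53 in cohort 7b.

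The size of the difference itself depended on the cohort for several members. The difference in cohort 7a less that in cohort 5 was tested as an interaction and passed for 3 of the 10 probesets, against 14.5% of all probesets: the first of GAD2 (1.27 ± 0.20, adjusted p = 2.54e-05), the first of LHX6 (0.33 ± 0.09, adjusted p = 0.0131) and the second of GAD1 (-0.55 ± 0.16, adjusted p = 0.0144). Cohort 7b against cohort 5 gave 6 of 10 against 31.6%. These were the first and second of GAD2 (1.99 ± 0.24, adjusted p = 3.31e-08, and 0.77 ± 0.17, adjusted p = 0.000510), the first of LHX6 (0.30 ± 0.11, adjusted p = 0.0389), PVALB (-1.83 ± 0.36, adjusted p = 0.000130), VIP (-0.69 ± 0.22, adjusted p = 0.0136) and NPY (-0.56 ± 0.22, adjusted p = 0.0491). The NPY value was lost in 25 of 43 fits that each left out 1 array, that of LHX6 in 7 of them, and that of VIP without control 38 (adjusted p = 0.0798), while for cohort 7a that of LHX6 was lost without control 28 (0.0681). With the actin value as a covariate the second of GAD1 (0.103) and LHX6 (0.0690) for cohort 7a and LHX6 (0.0814) and NPY (0.0953) for cohort 7b were no longer called. The second LHX6 probeset had values of -0.18 and -0.22 against cohort 5 in cohorts 7a and 7b and the second GAD2 probeset 0.20 in cohort 7a, none of which passed (adjusted p = 0.284, 0.230 and 0.365).

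Cohort 7b against cohort 7a, which share a kit, gave 2 of 10 against 9.94%: the second of GAD2 (0.57 ± 0.18, adjusted p = 0.0301) and PVALB (-1.37 ± 0.37, adjusted p = 0.0139). The first GAD2 probeset was just outside the threshold (0.72 ± 0.24, adjusted p = 0.0534). These tests share controls and drinkers between them. The PVALB difference between cohorts 7b and 7a was lost without control 38 (adjusted p = 0.105), and that of the second GAD2 probeset without control 25 (0.0573), control 28 (0.0741), control 37 (0.284) or drinker 41 (0.0531), whose array had the low spike-in.

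Genes around the members were taken from lists of the same pathways, 1 probeset per gene. In the 6 lists of GABA handling, interneuron transcription factors, other interneuron markers, neuropeptide receptors, neuropeptide processing and GABA receptors, 62 genes were tested. With cohort as a block 9 were higher and 7 lower in drinkers, against 11.8% and 21.5% of all probesets, with a median difference of -0.03 against -0.04 over all probesets. Of 8 GABA handling genes 1 was higher (SLC6A12, a GABA and betaine transporter, 0.19 ± 0.07, adjusted p = 0.0288) and none lower. Of 10 transcription factors 2 were higher, SOX6 (0.19 ± 0.06, adjusted p = 0.00999) and SATB1 (0.21 ± 0.07, adjusted p = 0.0169), and none was lower, against 11.8% and 21.5% of all probesets. In cohort 7b these 2 were higher (0.58 and 0.47, adjusted p = 1.55e-05 and 0.00115) and 2 other transcription factors of the list, DLX1 and DLX5, were lower (-0.28 and -0.26, adjusted p = 0.0355 and 0.0462). Without the block none of the 10 factors and none of the 8 GABA handling genes passed (adjusted p = 0.0553 for SOX6, 0.540 for SATB1 and 0.0757 for SLC6A12). These 5 genes were singled out after their values were seen.

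With cohort as a block, of 15 other interneuron markers 2 were higher and 3 lower, of 12 neuropeptide receptors 1 was higher and 2 lower, and of 7 neuropeptide processing genes 2 were higher and 1 lower. The shares over all probesets in this fit were 11.8% higher and 21.5% lower. Their median differences were -0.09, -0.04 and -0.03. Of 10 GABA receptor subunits 1 was higher and 1 lower, with a median of -0.01. Without the block, 2 of the 62 genes of the 6 lists were higher and 1 lower, against 5.57% and 10.6% of all probesets. The genes of these lists that passed both with and without the block were ELFN1, a synaptic protein of somatostatin interneurons, which was higher (0.22 ± 0.05 with the block, adjusted p = 0.00157), PTHLH, a secreted hormone-like peptide, which was lower (-0.42 ± 0.10, adjusted p = 0.00107), and GABRB1, a beta subunit of the GABA-A receptor, which was higher (0.35 ± 0.07, adjusted p = 0.000137). With array weights ELFN1 was no longer called with the block (0.14, adjusted p = 0.0677).

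GABRB1, like GAD2, had its lowest group means in the controls of cohorts 7a and 7b. It was at 11.8 ± 0.02 (SD, n = 5) in controls and 11.8 ± 0.14 (n = 8) in drinkers of cohort 5, at 11.2 ± 0.18 (n = 4) and 11.7 ± 0.08 (n = 8) in cohort 7a, and at 10.7 ± 0.09 (n = 2) and 11.6 ± 0.06 (n = 5) in cohort 7b. PTHLH was at 8.18 ± 0.16 (n = 2) in the controls and 6.95 ± 0.20 (n = 5) in the drinkers of cohort 7b, which put those controls high, as for PVALB. In cohort 5 none of the 62 genes passed. In cohort 7a 9 were higher and 6 lower, against 10.6% and 20.3% of all probesets, and in cohort 7b 10 were higher and 12 lower, against 14% and 26.1%.

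Markers of other cell classes were measured beside these. Of 43 such genes in 8 lists, 3 were higher and 6 lower with cohort as a block, against 11.8% and 21.5% of all probesets, and none passed in cohort 5. In cohort 7a 3 were higher and 4 lower, against 10.6% and 20.3%, and in cohort 7b 8 and 9, against 14% and 26.1%. Of 6 pan-neuronal genes none passed with the block, 1 was higher in cohort 7a (TUBB3, 0.24 ± 0.07, adjusted p = 0.00529) and 1 was lower in cohort 7b (ENO2, -0.61 ± 0.10, adjusted p = 4.46e-06), both named after their values were seen. The mean of these 6 genes was 11.53 to 11.74 in controls and 11.61 to 11.75 in drinkers of cohort 7a. In cohort 7b it was 11.80 and 11.83 in the controls and 11.59 to 11.76 in the drinkers, with no overlap. Of 8 excitatory neuron genes 2 were higher and 3 lower. Of 9 microglial genes 3 were lower and none higher, among them P2RY12 (-0.58 ± 0.13, adjusted p = 0.000710) and AIF1 (-0.44 ± 0.11, adjusted p = 0.00149), the first of which was lost with array weights (-0.38, adjusted p = 0.0601). The mean of the 9 microglial genes was 7.44 to 7.83 in controls and 7.18 to 7.49 in drinkers of cohort 7a. With the block, 1 of 6 astrocyte genes was higher, and none passed among 3 of oligodendrocytes, 2 of their precursors, 4 of vessels and 5 of striatal projection neurons. In cohort 7b, where 8 of the 10 member probesets passed, 3 astrocyte genes were higher and 1 lower, with a median difference of 0.27, and the mean of the 6 was 10.74 and 10.75 in the controls and 10.96 to 11.11 in the drinkers, with no overlap. There 2 of the 4 vascular genes were lower and none higher, with means of the 4 of 7.29 and 7.32 in the controls and 7.05 to 7.17 in the drinkers, which did not overlap either. The means of the oligodendrocyte precursors, the interneuron transcription factors and the other interneuron markers also did not overlap there. Those of the excitatory, striatal, oligodendrocyte and microglial lists did. Of all single probesets, 43.2% had no overlap in cohort 7b. Of the 3 oligodendrocyte genes 1 was higher, of the 9 microglial genes 2 were higher and 2 lower, and of the 8 excitatory neuron genes 2 were higher and 3 lower. In cohort 7a 1 astrocyte gene was higher and 1 lower, 3 microglial genes were lower, 1 excitatory neuron gene was higher, and no vascular or oligodendrocyte gene passed. The part of these cell classes in the member differences was not tested.

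Within groups, the members were compared across animals after the mean of each cohort and treatment was taken away, with the first probeset of each gene. Of 15 pairs 2 passed (Pearson's r, permutation within groups, two-sided, Benjamini-Hochberg over the 15, smallest possible p 1e-05). PVALB and VIP varied together, with r = 0.57 (permutation p = 0.0002, adjusted p = 0.00300) and rho = 0.63 (permutation p = 4e-05, adjusted p = 0.0006) over 43 animals. Without the 2 animals farthest from the median of PVALB, r was 0.51, and within cohorts 4, 5, 7a and 7b it was 0.78, 0.75, 0.31 and 0.38 (n = 11, 13, 12 and 7). The relation was thus positive in each cohort and closest in cohorts 4 and 5.

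GAD1 and VIP had r = 0.44 (permutation p = 0.00332, adjusted p = 0.0249) and rho = 0.41 (permutation p = 0.00839, adjusted p = 0.0420), 0.42 without the 2 animals farthest from the median of GAD1, and 0.25, 0.52, 0.39 and 0.84 within cohorts 4, 5, 7a and 7b. With the second or the third GAD1 probeset in its place, r was 0.02 and 0.04. GAD1 and PVALB passed by rho (0.42, permutation p = 0.0074, adjusted p = 0.0420) and not by r (0.34, permutation p = 0.0218, adjusted p = 0.109). GAD2 and LHX6, which differed the same way between drinkers and controls, had r = 0.10 within groups (permutation p = 0.599, adjusted p = 0.910) and rho = 0.16 (permutation p = 0.352, adjusted p = 0.660). The other pairs had r between -0.24 and 0.33. All members were read on the same arrays and the same tissue piece, so values of an array share its composition.

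**Figure D4:**
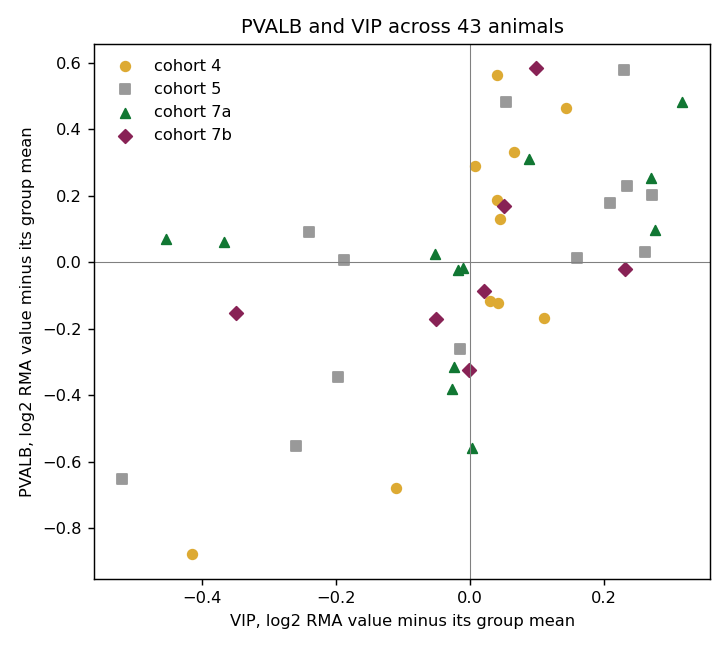
PVALB (y axis) against VIP (x axis), each as the log2 RMA value less the mean of the animal's cohort and treatment, with 1 point per animal and marks by cohort. Over the 43 animals r was 0.57.

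Probesets of 1 gene varied together within groups for some pairs and not for others. The first and the second GAD1 probeset had r = 0.43 over the 43 animals after group means were taken away, those of GAD2 had r = 0.36, the second and the third of GAD1 had r = 0.40, the first and the third of GAD1 r = 0.02, and those of LHX6 r = -0.12. These values are descriptions across arrays and carry no test. Among 13704 other genes, those whose first probeset was most like each member within groups were SCN1A, a sodium channel of fast-spiking interneurons (r = 0.67), with TESPA1 (0.71) and CPVL (0.66) for PVALB, and LOC712612 (0.78), VGLL4 (0.71) and TESPA1 (0.71) for VIP. For GAD1 they were LOC721857 (0.72), TRERF1 (0.71) and FGF9 (0.69), for GAD2 TENT2 (0.67), NSMAF (0.66) and JADE1 (0.65), for LHX6 TOP6BL (0.64), UTP20 (0.63) and NEURL4 (0.63), and for NPY MARCHF3 (0.57), ATP8B3 (0.55) and SH3BP4 (0.55). TESPA1 was the gene shared by PVALB and VIP.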

How the data were processed

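The authors hybridized RNA to Affymetrix rhesus macaque arrays, 1 per animal, left out arrays that failed quality control or stood apart in clustering, which left the 43 used here, and deposited log2 RMA values (background correction, quantile normalization over all arrays and probeset summary; affy and RMA are named per the labels, versions not given in the sources used here), without adjustment for array processing batch. Depth does not apply to arrays, so precision is set by how many animals, and mainly how many controls, there were. Of 52865 probesets, 25317 had a gene symbol in the probe table. A probeset whose value lay below 3.5 on 80% or more of the arrays was left out, and 24151 remained. Differences were fitted with limma 3.58.1 (R 4.3.3) in 3 ways: ethanol against control over all arrays, with cohort as a block, and within each cohort from a fit of 7 group means, from which differences between cohorts were also taken. In the last fit all 43 arrays shared 1 estimate of a probeset's spread. The SEs and p-values within a cohort thus rest on the spread in all groups, not only on that cohort's animals. P-values were adjusted by Benjamini-Hochberg over all 24151 probesets, with a threshold of 0.05. Correlations used 100000 permutations within groups. The scripts were tested on simulated data. Groups came from the labels, and replicates are animals.

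The members and gene lists were chosen with earlier results of these data known. The text names all member probesets, list genes that passed both with and without the block (up to 3 per list and direction by size), and the 3 genes most like each member. A few other list genes are named and said to have been chosen after their values were seen. A gene's first probeset is the one with the highest mean. The correlations had been planned over all 8 genes and were made over the 6 that had a probeset. Alternatives were the filter, variance moderation, array weights, the actin covariate, scaling to pan-neuronal genes, gene means, kit, cohorts and leaving out each array. Sequences and genome positions, intake, RNA integrity numbers and the authors' batch-adjusted values were not used here.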

Additional observations from a re-analysis of the deposited data

Results flagged for a closer look

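Among 50 sets of a member probeset and a group of 4 to 10 animals, 5 had 1 animal apart from the rest by Dixon's criterion, which chance gives in about 1 of 20 sets. For GAD2 these were control 25 of cohort 7a, lowest at 6.50 on the first probeset (next 7.05), drinker 41 of cohort 7b, highest at 9.62 (next 9.07), whose array also had the low spike-in, and drinker 19 of cohort 5, highest at 7.18 on the second probeset (next 6.88). Control 12 of cohort 5 was highest at 5.8 on the third GAD1 probeset (next 5.69), and control 13 of cohort 5 was highest at 5.81 on the second LHX6 probeset (next 5.61).

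Of 30 tests of whether the difference between drinkers and controls itself differed between cohorts, 11 passed (limma, adjusted p under 0.05). Over all probesets 14.5% passed for cohort 7a against 5, 31.6% for cohort 7b against 5 and 9.94% for cohort 7b against 7a. The tests share animals, and the 10 member probesets are of 6 genes. Against cohort 5, cohort 7a gave 1.27 for the first GAD2 probeset, 0.33 for the first LHX6 probeset and -0.55 for the second GAD1 probeset. Against cohort 5, cohort 7b gave 1.99 and 0.77 for the 2 GAD2 probesets, 0.30 for the first LHX6 probeset, -1.83 for PVALB, -0.69 for VIP and -0.56 for NPY. Cohort 7b against cohort 7a gave 0.57 for the second GAD2 probeset and -1.37 for PVALB. Cohort 5 and cohorts 7a and 7b also differed in RNA kit and array run, which cannot be told apart from cohort.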

How the results depend on the processing

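Of 430 differences of single member probesets refitted under other settings than leaving out an array, 393 kept their direction and their side of the threshold, 21 lost their call, 7 gained one and 9 changed sign, all 9 of them uncalled on both sides. Over all probesets, the 1345 higher and 2556 lower calls over all arrays became 2364 and 4050 with the actin covariate, 2390 and 4582 with the kit as a block and 841 and 1498 without cohort 4, and the 2842 and 5202 with the block became 1070 and 1517 with array weights and 1725 and 2050 with the actin covariate. The actin covariate also left 2614 lower in cohort 7a (4902 before) and 1190 for cohort 7a against cohort 5 (2248), and moved the share of higher calls from 35.3% to 45.7% with the block, 34.4% to 44.5% in cohort 7a and 35.7% to 46.6% for cohort 7a against cohort 5. Gene means tested 13705 genes, with 704 higher over all arrays, 1528 and 3083 with the block, 1339 and 2963 in cohort 7a, and 1897 and 3793 in cohort 7b, fewer because fewer features were tested. The counts of members called changed as follows. Over all arrays, array weights left 0 higher and 0 lower (with 0 of all probesets called), leaving out cohort 4 left 1 higher, and the actin covariate and the kit as a block each gave 3 lower. Gene means in place of probesets gave 1 higher over all arrays, with the block, in cohort 7a and in cohort 7b, since each gene then counted once and LHX6 was lost. The blocked fit in cohorts 7a and 7b alone gave 5 lower. For cohort 7a against cohort 5, the actin covariate gave 1 higher and 0 lower. Scaling to pan-neuronal genes gave 3 lower in cohort 7b, 1 higher for cohort 7a against cohort 5 and 2 higher for cohort 7b against cohort 7a.

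That scaling moved the median of all probesets in cohort 7b from -0.07 to 0.06 and that of cohort 7b against cohort 7a from -0.02 to 0.14, and the share of calls in cohort 7b that were higher from 34.9% to 53.0%. For cohort 7a against cohort 5, 7b against 5 and 7b against 7a that share moved from 35.7%, 33.1% and 31.1% to 20.6%, 47.5% and 80.7%, with 745 higher for the first of these (1249 before) and 1618 higher and 388 lower for the last (747 and 1653). On that scale the member differences in cohort 7b were 2.35 and 0.98 for GAD2, 0.47 for the first LHX6 probeset, -1.41 for PVALB, -0.84 for VIP and -0.53 for NPY, all still called, and -0.34 and -0.38 for the second and the third GAD1 probesets, which were not. It turned the sign of the first GAD1 probeset over all arrays (0.0080), with the block (0.00070), in cohort 7b (0.015) and for cohort 7b against 5 (0.0421), and for cohort 7b against 7a that of the third GAD1 probeset (0.15), the first LHX6 probeset (0.12) and the second (0.12). Array weights turned the blocked PVALB difference to 0.0049, and the actin covariate turned NPY in cohort 7a against 5 to 0.0776. The causes were not tested.

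Leaving out each of the 43 arrays in turn gave 1 to 2 lower members over all arrays, 3 to 5 lower in cohort 7b, 1 to 2 higher for cohort 7a against 5, and 0 to 2 higher and 0 to 2 lower for cohort 7b against 7a. Uncalled values that changed sign ranged from -0.0362 to 0.0109 for the first GAD1 probeset over all arrays, -0.0394 to 0.12 for it in cohort 7a, -0.0017 to 0.07 for the second LHX6 probeset in cohort 5, -0.20 to 0.0046 for NPY in cohort 7a and -0.11 to 0.10 for NPY in cohort 7a against 5. For cohort 7b against 7a they ranged from -0.0412 to 0.29 and -0.26 to 0.26 for the second and the third GAD1 probesets, and from -0.11 to 0.0412 and -0.10 to 0.0143 for those of LHX6. The interaction of NPY in cohort 7b against 5 was lost in 25 of the 43 (adjusted p from 0.0273 to 0.151). That of the first LHX6 probeset was lost without control 28 for cohort 7a against 5 (0.0681) and without any 1 of 7 animals for cohort 7b against 5, with control 38 giving the highest adjusted p (0.253), and that of VIP for cohort 7b against 5 was lost without control 38 (0.0798).

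Centring correlations within cohort only, which leaves the treatment difference in them, gave 8 pairs past the threshold and turned GAD2 with PVALB (-0.45), GAD2 with VIP (-0.63), GAD1 with NPY (0.039), PVALB with NPY (0.20) and VIP with NPY (0.21). Scaling to pan-neuronal genes gave 4 pairs and turned LHX6 with PVALB (0.0158) and with VIP (0.0091). With other probesets, a choice made after seeing the data, 1 pair passed for either further GAD1 probeset, and signs turned for GAD1 with LHX6 (-0.0144 and -0.14) and with PVALB (-0.048 and -0.29), for the second GAD2 probeset with LHX6 (-0.10), VIP (-0.13) and NPY (0.0077), and for the second LHX6 probeset with GAD1 (-0.20), GAD2 (-0.19), VIP (0.0459) and NPY (0.0029). No paired analysis was made, because the labels give each animal a number of its own and do not say which control was matched to which drinker.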
